A study of Mus musculus with 30 samples.

Results

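Glycolysis and the hypoxia response were followed through 34 genes, chosen by name from the textbook pathways, with earlier results of these data known, out of 45317 genes in the deposited count table. They comprise 11 genes of glucose uptake and upper glycolysis, 9 of lower glycolysis and lactate handling, 6 encoding hypoxia-inducible factor 1α (HIF1α) and oxygen-dependent hydroxylases or demethylases, and 8 other hypoxia-responsive genes. Their RNA was measured in 8 sorted cell populations from 4 mice that carry the numbers 22, 23, 24 and 26. All animals were C57BL6.CCR2RFP/WT, with 1 copy of Ccr2 replaced by a red fluorescent reporter, were 12 to 18 weeks old, and bore an intracranial glioma grown from GL261.BpalmGFP, a single syngeneic mouse glioma line with membrane-anchored GFP. No population from a mouse without a tumor was analysed here. Blood provided Ly6Chigh monocytes, the classical infiltrating kind, and Ly6Clow monocytes, the patrolling kind, both sorted as CD45high, CD115high and CD11clow cells from mice 22, 23 and 24. The brain provided cells with high CD11b and CD45, namely Ly6Chigh glioma monocytes from mice 22, 24 and 26 and F4/80-positive macrophages with high or low CCR2 reporter from all 4 mice, and each of these was divided into GFPpos cells, which had taken up glioma membrane, and GFPneg cells. Brain tissue was dissociated mechanically and with enzymes while blood was not, so compartment and dissociation cannot be told apart in any blood against brain comparison.

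Glycolysis splits glucose into pyruvate in the cytosol, and cells that are short of oxygen, or that are activated by inflammatory signals, turn much of that pyruvate into lactate. HIF1α is made continuously and, when oxygen is present, is hydroxylated on prolines by the EGLN enzymes and degraded. When oxygen is low the protein persists, pairs with ARNT and binds promoters and enhancers at short sequences with the core RCGTG, where R stands for A or G, and its targets include most glycolytic enzymes, glucose and lactate transporters and angiogenic factors. Macrophages also use HIF1α under normal oxygen, and myeloid cells in hypoxic parts of tumors are known for a glycolytic and angiogenic program. RNA levels report neither the activity of the enzymes nor the amount of HIF1α protein.

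Promoter sequence was taken from RefSeq (GRCm38.p6) as windows from 250 bases before to 50 bases after an annotated start, and 33 of the 34 genes had such a window. The core ACGTG, searched on both strands so that CACGTG counts once on each, was present in a window of 24 of these 33 genes (72.7%) and of 2737 of the 9157 tested genes with a window (29.9%). Many members belong to the set because they are textbook HIF targets, so this share is a description and not a test. The 5 stretches below were chosen among windows that hold the core before the start, so its presence in them is no result. They come from the promoters of a lactate producer, a textbook HIF-driven glycolytic enzyme and a mitophagy gene. The others are those of the glucose and lactate transporters whose RNA levels are given further on. Capitals mark each ACGTG or its reverse complement CACGT. *Ldha* (chr7:46845639-46845794, plus strand, 165 to 10 bases before the start), *Pgk1* (chrX:106186930-106186993, plus strand), *Bnip3* (chr7:138909589-138909634, minus strand), *Slc2a1* (chr4:119108689-119108733, plus strand) and *Slc16a1* (chr3:104638444-104638489, plus strand) read as follows, 5′ to 3′.
Ldha: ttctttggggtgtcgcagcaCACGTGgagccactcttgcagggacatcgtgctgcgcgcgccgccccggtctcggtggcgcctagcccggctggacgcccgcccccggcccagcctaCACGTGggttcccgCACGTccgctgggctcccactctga
Pgk1: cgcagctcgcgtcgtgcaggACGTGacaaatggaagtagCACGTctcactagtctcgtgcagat
Bnip3: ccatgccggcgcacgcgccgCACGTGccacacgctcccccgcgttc
Slc2a1: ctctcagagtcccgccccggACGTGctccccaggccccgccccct
Slc16a1: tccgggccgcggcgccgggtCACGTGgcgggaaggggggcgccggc
The *Ldha* stretch held 5 cores, 4 of them from 2 copies of the palindrome CACGTG. *Pgk1* held 2 cores in opposite orientation, *Bnip3* and *Slc16a1* each held 1 palindrome, and *Slc2a1* held 1 core, 36 bases before the start. No ACGTG lay in any window of *Gpi1*, *Pfkl*, *Pfkp*, *Pfkfb4*, *Tpi1*, *Eno1*, *Kdm3a*, *Pdk1* or *Adm*, which says only that these letters are not in these windows. With GCGTG counted as well, 31 of the 33 members (93.9%) and 67.4% of the tested genes had a core.

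The 28 replicates had 1553616 to 5689644 counts on genes (median 2140230) and 7826 to 15407 genes detected. Values are normalized read counts, given as CPM, the count relative to the library size on a common scale (counts per 1e+06), with library sizes scaled by the trimmed mean of M-values (TMM). A gene at 0 may still hold 3 counts, between 0.527 and 1.93 CPM depending on the library, taken on library sizes before TMM scaling. All 34 members were among the 11566 genes that passed the filter on low counts and were tested, although 6 of them (*Slc16a1*, *Egln3*, *P4ha2*, *Vegfa*, *Adm* and *Ankrd37*) reached its minimum in 3 replicates only with the brain samples. The replicate of Ly6Clow monocytes from mouse 23 stood apart, with 13.3% of its counts on spike-in RNAs against 0.284% to 5.16% in the others and with the fewest genes detected, and the values without it are given beside the results that move most with it. The 10 monocyte and macrophage markers examined, none of which was at 0 in any population, summed to 5110 to 12300 CPM. The 8 microglial markers summed to 58.6 to 285 CPM in blood and 2040 to 10900 CPM in brain, 7 markers of glioma and stromal cells to 0 to 0.296 CPM in blood and 0.603 to 565 CPM in brain, 5 astrocyte markers to 0 to 2.07 CPM in blood and 25.9 to 103 CPM in brain, and 10 genes induced by tissue dissociation to 627 to 1700 CPM in blood and 3480 to 15400 CPM in brain. Markers of neutrophils (388 to 1490 CPM in blood and 9.37 to 2820 CPM in brain) and of B cells (58.7 to 443 and 37.1 to 925 CPM) overlapped between the compartments. The 8 markers of T and NK cells summed to 20.5 to 183 CPM in Ly6Chigh monocytes, below every brain replicate (287 to 1760 CPM), and to 965 to 1340 CPM in Ly6Clow monocytes, within the brain range. The microglial, glioma, astrocyte and dissociation lists, and in comparisons with Ly6Chigh monocytes also the T and NK cell list, differ between blood and brain in the same direction as most members, and their part in the results was not tested except where values without them are given. The 4 endothelial markers summed to 28.7 to 52 CPM in Ly6Chigh and 66 to 119 CPM in Ly6Clow monocytes. GFPneg glioma monocytes had 94.8 to 154 CPM, GFPneg CCR2high macrophages 46.5 to 116 CPM and GFPneg CCR2low macrophages 44 to 89.7 CPM. *Cldn5* and *Cdh5* were at 0 in all blood replicates. This list was thus higher in GFPneg glioma than in Ly6Chigh monocytes, and its part was not tested. In sorted bulk samples fewer cells of a type and less RNA per cell cannot be told apart.

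Most members that differed between the compartments were higher in the brain. Compared with Ly6Chigh blood monocytes, 19 of the 34 members were higher and 0 lower in GFPneg glioma monocytes at an adjusted p under 0.05 (edgeR quasi-likelihood test, Benjamini-Hochberg over all genes tested), where 11.1% of all genes were called higher and 2.68% lower. In GFPneg CCR2high macrophages 13 members were higher and 0 lower (12.7% and 5.14% of all genes), and in GFPneg CCR2low macrophages 13 were higher and 1, *Pfkfb4*, was lower (14.1% and 6.09% of all genes). The median fitted log2 fold change of the members was 1.65, 1.27 and 1.36 in the 3 comparisons, against 0.123, 0.15 and 0.173 over all genes tested. Mouse 26 gave brain but no blood samples, and mouse 23 gave no glioma monocytes. With only the mice that gave both populations, chosen after seeing the data, the member medians were 1.37, 1.14 and 1.14. Those over all genes were then 0.0313, 0.0962 and 0.13. Over the 28 members that reached the filter's minimum in 3 blood replicates, 16, 11 and 11 were called higher and 0, 0 and 1 lower, with median log2 fold changes of 1.48, 1.02 and 1.05. These comparisons share the 3 Ly6Chigh replicates and are therefore not independent of each other. Without single replicates the counts of higher members became 12 of 34 (without Ly6Chigh mouse 23, or without glioma monocytes of mouse 26), 7 to 8 for CCR2high macrophages (without any 1 of the Ly6Chigh replicates) and 8 for CCR2low macrophages (without Ly6Chigh mouse 22 or 23). Scaled by spike-in RNAs in place of TMM, 2, 3 and 3 members were called higher, and calls over all genes fell from 1286, 1466 and 1636 higher genes to 390, 467 and 504.

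**Figure D1:**
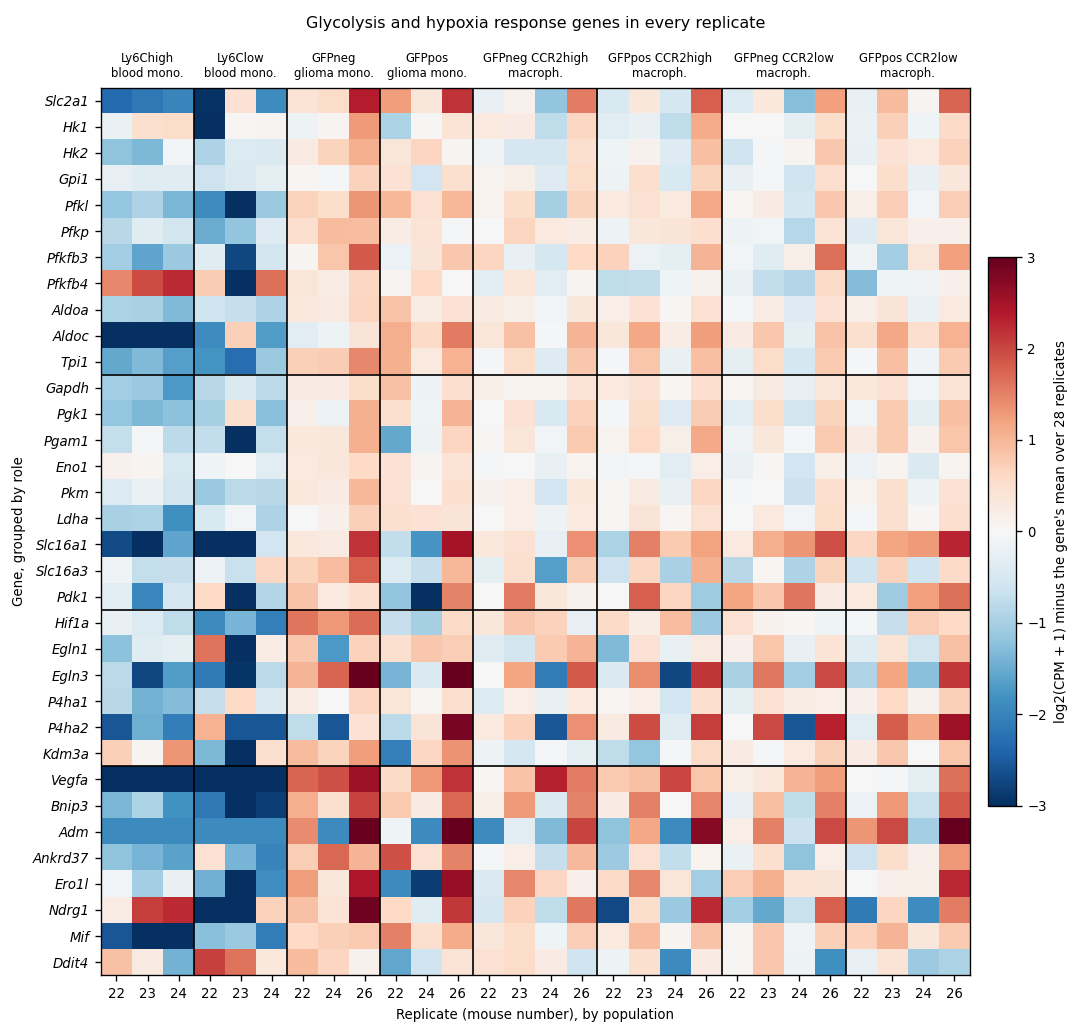
Normalized read count of the 34 members (rows, grouped by role) in the 28 replicates (columns, grouped by population and labelled by mouse), as log2(CPM + 1) centered on each gene's mean, with red for values above the mean and blue for values below it (the scale ends at 3 in each direction). Most rows are blue in the 6 blood columns and mostly red in brain columns, while *Pfkfb4* is red in the Ly6Chigh columns.

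The 12 members *Slc2a1*, *Pfkl*, *Aldoa*, *Aldoc*, *Tpi1*, *Gapdh*, *Pgk1*, *Ldha*, *Slc16a1*, *P4ha1*, *Vegfa* and *Mif* were called higher in all 3 comparisons with Ly6Chigh monocytes (35.3% of members, against 8.8% of all genes tested), and 0 were called lower in all 3 (2.2% of all genes). For 7 of them (*Aldoa*, *Aldoc*, *Tpi1*, *Gapdh*, *Ldha*, *Vegfa* and *Mif*) each of the 3 calls held when any single replicate of the compared populations was left out. The other 5 lost at least 1 call in that way. The 12 include *Slc16a1* and *Vegfa*, which reached the filter's minimum in 3 replicates only with the brain samples. The share of members without them was not determined. *Hk2*, *Pkm*, *Hif1a*, *Bnip3* and *Ankrd37* passed the threshold in glioma monocytes alone, but 0 of the 34 members were called between GFPneg glioma monocytes and macrophages in the edgeR test without a block. In the comparison with CCR2low macrophages, pairing by mouse called 4 and DESeq2 called *Hif1a*, as given below. A further 14 members (*Hk1*, *Gpi1*, *Pgam1*, *Eno1*, *Slc16a3*, *Pdk1*, *Egln1*, *Egln3*, *P4ha2*, *Kdm3a*, *Adm*, *Ero1l*, *Ndrg1* and *Ddit4*) passed it in none of the 3. Of these, the fit with the mouse number as a block called *Eno1*, *Slc16a3*, *Egln3* and *Adm* higher in glioma monocytes and *Adm* in CCR2low macrophages, and it also called *Bnip3* higher in CCR2high macrophages (adjusted p = 0.0329).

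**Figure D2:**
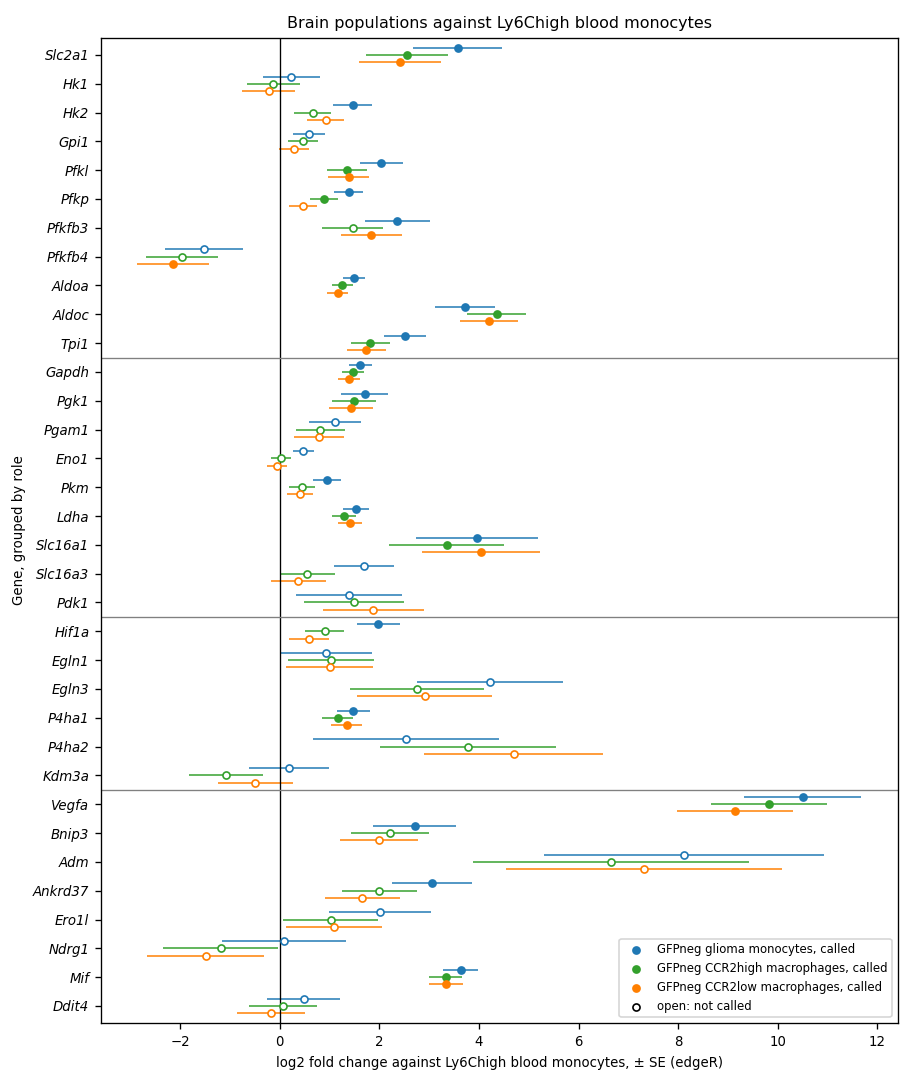
Fitted log2 fold change of each member (rows) in GFPneg glioma monocytes, GFPneg CCR2high macrophages and GFPneg CCR2low macrophages against Ly6Chigh blood monocytes, with bars of 1 standard error, filled points for calls at an adjusted p under 0.05 and open points otherwise. *Vegfa* and *Adm* were at 0 in all blood replicates, so their fitted values depend on the prior count and are not measured folds.

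Of the 11 genes of uptake and upper glycolysis, 8 rose in glioma monocytes, 6 in CCR2high macrophages and 6 in CCR2low macrophages, all GFPneg and compared with Ly6Chigh blood monocytes. *Slc2a1* (chr4:119108711-119137983) encodes GLUT1, the broadly expressed glucose transporter. It measured 47.2, 53.9 and 61 CPM in Ly6Chigh monocytes (values in each sentence run in the order of the mouse numbers) and 30.2, 328 and 65.4 CPM in Ly6Clow monocytes. GFPneg glioma monocytes had 325, 358 and 1250 CPM, GFPneg CCR2high macrophages 203, 265, 106 and 701 CPM, and GFPneg CCR2low macrophages 183, 303, 99.9 and 568 CPM. Every brain replicate lay above the 3 Ly6Chigh replicates, mouse 26 was the highest and mouse 24 the lowest of both GFPneg macrophage populations, and Ly6Clow mouse 23 alone among blood replicates fell within the brain range. Against Ly6Chigh monocytes the log2 fold change was 3.57 ± 0.886 (SE) in glioma monocytes (11.9-fold, adjusted p = 0.0065), 2.56 ± 0.823 in CCR2high macrophages (adjusted p = 0.0306) and 2.41 ± 0.818 in CCR2low macrophages (adjusted p = 0.0369). Without the glioma monocytes of mouse 26 the first log2 fold change became 2.61 (adjusted p = 0.0572). Both macrophage calls were lost without mouse 26, where the log2 fold changes became 1.78 and 1.8 (adjusted p = 0.13 and 0.124), and without any 1 of the Ly6Chigh replicates (0.0916 to 0.125), that in CCR2low macrophages also without mouse 23 (0.0609).

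*Aldoc* (chr11:78322968-78327781) encodes aldolase C, the aldolase best known from brain, and *Tpi1* (chr6:124810586-124814296) the triosephosphate isomerase that follows aldolase. *Aldoc* measured 3.37, 3.51 and 4.18 CPM in Ly6Chigh monocytes and 12.7, 83.3 and 15.1 CPM in Ly6Clow monocytes. It reached 40.1, 45 and 65.2 CPM in GFPneg glioma monocytes, 64.3, 93.6, 49 and 103 CPM in GFPneg CCR2high macrophages and 59.5, 87.8, 40.7 and 91.2 CPM in GFPneg CCR2low macrophages. All brain replicates were above all Ly6Chigh replicates by a wide margin, and among blood replicates only Ly6Clow mouse 23 reached the brain range. The log2 fold change against Ly6Chigh monocytes was 3.72 ± 0.597 (13.2-fold, adjusted p = 7e-05), 4.36 ± 0.593 (20.5-fold, adjusted p = 5.98e-06) and 4.2 ± 0.59 (18.4-fold, adjusted p = 8.3e-06) in the 3 populations. Of the 5 astrocyte markers, 4 were at 0 in every blood replicate, and their sum was 33.1 to 48.4 CPM in GFPneg glioma monocytes, 25.9 to 45.7 CPM in CCR2high and 60.1 to 74.3 CPM in CCR2low macrophages, and the part of astrocytes in the *Aldoc* values was not tested. *Tpi1* measured 235, 272 and 217 CPM in Ly6Chigh monocytes, 197, 140 and 316 CPM in Ly6Clow monocytes and 1130, 1160 and 1870 CPM in GFPneg glioma monocytes. In GFPneg macrophages it was 671, 1010, 526 and 1200 CPM with high CCR2 and 573, 1000, 474 and 1190 CPM with low CCR2. The groups of blood and brain replicates did not overlap for *Tpi1*, and mouse 26 was again the highest in these 3 populations. Its log2 fold change was 2.52 ± 0.419 (adjusted p = 0.000105), 1.82 ± 0.393 (adjusted p = 0.00145) and 1.74 ± 0.392 (adjusted p = 0.00193).

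*Pfkfb4* (chr9:108991778-109032228), whose product sets the level of the allosteric activator of phosphofructokinase, went the other way. It measured 131, 188 and 229 CPM in Ly6Chigh monocytes and 81.1, 0 and 151 CPM in Ly6Clow monocytes. GFPneg glioma monocytes had 61.2, 56.2 and 73.6 CPM, GFPneg CCR2high macrophages 37.2, 62, 38.2 and 50.1 CPM and GFPneg CCR2low macrophages 41.3, 28.3, 25.4 and 71.7 CPM. All of these brain replicates lay below all Ly6Chigh replicates, while the Ly6Clow replicates lay on both sides of them. Its log2 fold change against Ly6Chigh monocytes was -2.14 ± 0.724 in CCR2low macrophages (adjusted p = 0.0364), -1.96 ± 0.719 in CCR2high macrophages (adjusted p = 0.0593, and called lower with the mouse number as a block) and -1.52 ± 0.783 in glioma monocytes (adjusted p = 0.234). The call was lost without Ly6Chigh mouse 23 or 24 (0.0756 and 0.121) and without CCR2low macrophages of mouse 22, 23 or 24 (0.072 to 0.1).

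Among the remaining members of this role, *Aldoa*, the main aldolase of these cells, rose from 801 ± 114 CPM (SD, n = 3) in Ly6Chigh monocytes to 2241 ± 323 CPM in GFPneg glioma monocytes (n = 3), 1908 ± 233 CPM in CCR2high and 1786 ± 426 CPM in CCR2low macrophages (n = 4 each). *Pfkl*, the liver-type phosphofructokinase, rose in all 3 populations (log2 fold change 2.04, 1.35 and 1.38), but its macrophage calls were lost without any 1 of the Ly6Chigh replicates (0.0514 to 0.102) and without the macrophages of mouse 26 (0.0734 and 0.0696), that in CCR2high macrophages also without mouse 23 (0.0673). *Pfkp*, the platelet type, rose in glioma monocytes and CCR2high macrophages, and *Pfkfb3*, the other member of the *Pfkfb4* family followed here, rose in glioma monocytes and CCR2low macrophages, from 20.5 ± 4.14 CPM to 106 ± 64.1 and 73.8 ± 55 CPM. Without any 1 of the Ly6Chigh replicates the *Pfkp* call in CCR2high macrophages (0.0711 to 0.161) and both *Pfkfb3* calls (0.0526 to 0.151) were lost, as were the former without mouse 23 or 24 (0.111 and 0.06) and the latter without mouse 26, where the *Pfkfb3* log2 fold change went from 2.36 to 1.73 in glioma monocytes (adjusted p = 0.12) and from 1.84 to 1.14 in CCR2low macrophages (adjusted p = 0.196). *Hk2*, the inducible hexokinase, rose in glioma monocytes, from 62.1 ± 32.8 to 172 ± 48.2 CPM (adjusted p = 0.0143), a call lost without Ly6Chigh mouse 22 or 23 (0.104 and 0.122) or glioma monocytes of mouse 26 (0.0973). *Hk1*, the constitutive hexokinase, and *Gpi1*, the isomerase of the second step, had log2 fold changes of -0.223 to 0.592 that did not pass the test.

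**Figure D3:**
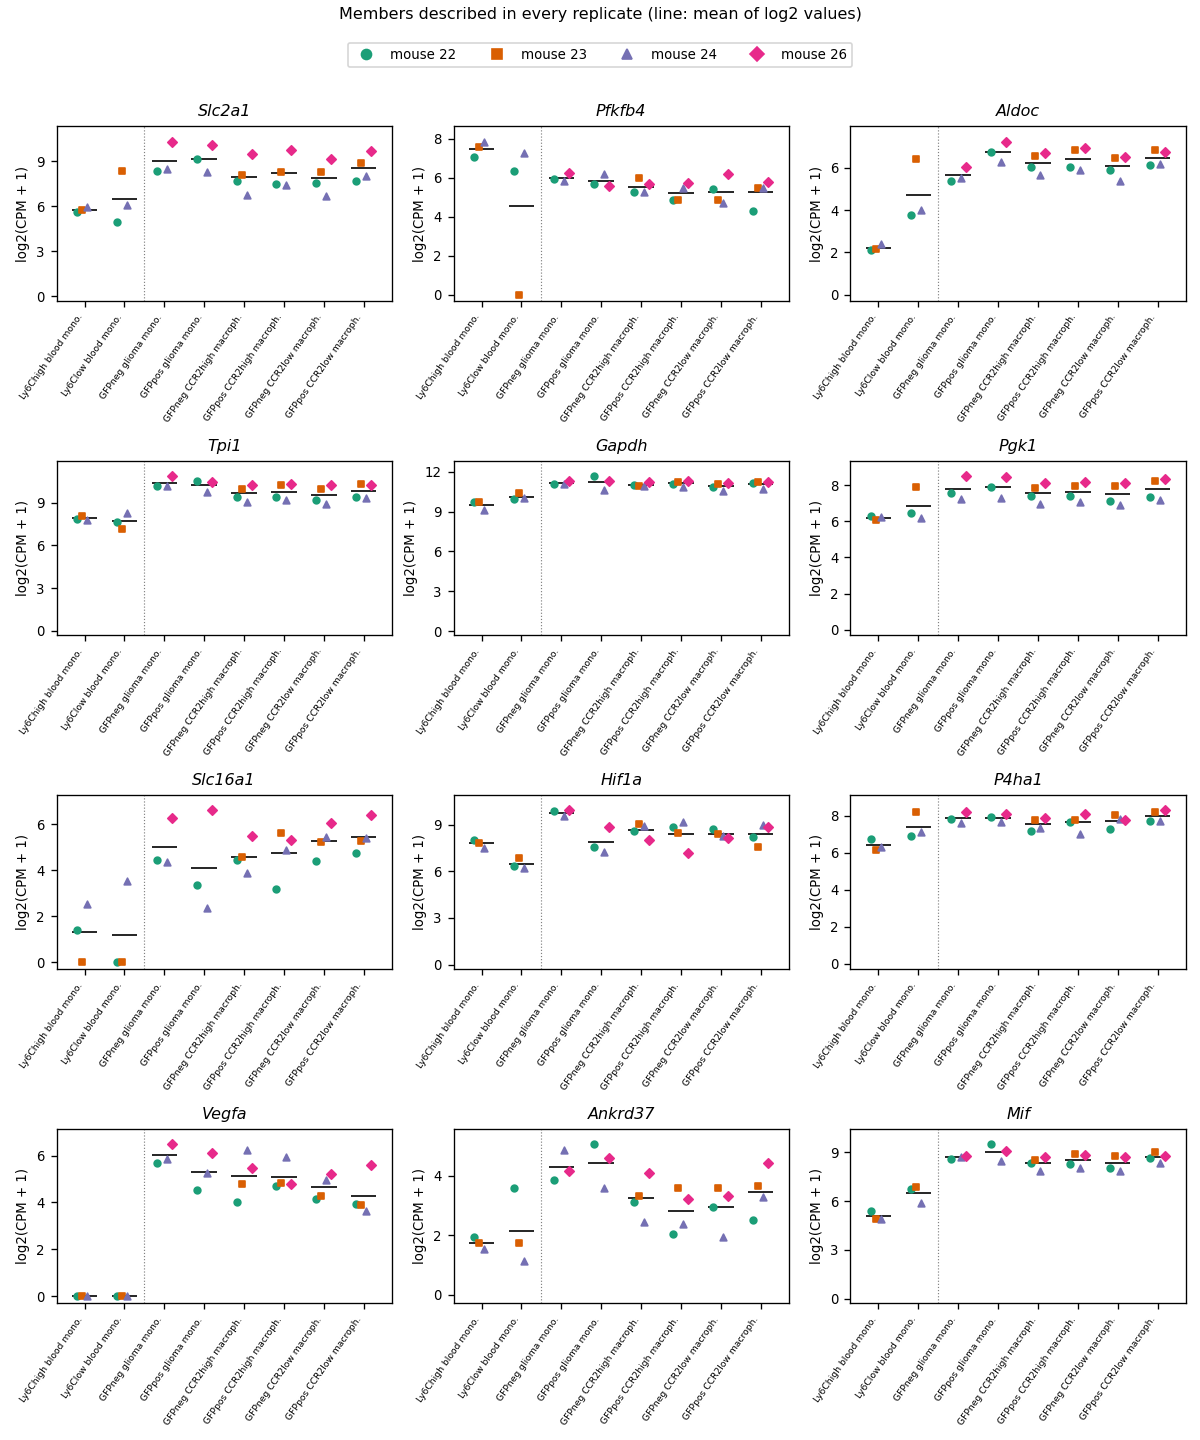
Normalized read count, as log2(CPM + 1), of the 12 members given replicate by replicate, with 1 panel per gene, populations on the horizontal axis and 1 point per mouse, with color and shape for the mouse and a short line at the mean of the log2 values. Points of *Tpi1*, *Gapdh*, *Vegfa* and *Mif* in the 6 brain populations lie above all of their blood points, while those of *Pfkfb4* lie below all Ly6Chigh points.

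Of the 9 genes of lower glycolysis and lactate handling, 5 rose in glioma monocytes and 4 in each macrophage population. *Gapdh* (chr6:125161715-125166467) encodes glyceraldehyde-3-phosphate dehydrogenase and *Pgk1* (chrX:106187100-106203699) phosphoglycerate kinase, which makes the first ATP of the pathway. *Gapdh* measured 869, 831 and 548 CPM in Ly6Chigh monocytes, 1010, 1330 and 1050 CPM in Ly6Clow monocytes and 2150, 2140 and 2590 CPM in GFPneg glioma monocytes. It was 2030, 1940, 1930 and 2390 CPM in GFPneg CCR2high macrophages and 1880, 2160, 1520 and 2300 CPM in GFPneg CCR2low macrophages. No blood replicate reached any brain replicate, and the log2 fold change against Ly6Chigh monocytes was 1.62 ± 0.237 (3.07-fold, adjusted p = 2.34e-05), 1.47 ± 0.226 (2.77-fold) and 1.39 ± 0.225 (2.62-fold). *Pgk1* measured 76.4, 66.8 and 73.6 CPM in Ly6Chigh monocytes, 86.8, 241 and 72.5 CPM in Ly6Clow monocytes and 192, 153 and 366 CPM in GFPneg glioma monocytes. GFPneg macrophages had 172, 232, 125 and 280 CPM of *Pgk1* with high CCR2 and 137, 249, 118 and 276 CPM with low CCR2. These brain replicates were all above the Ly6Chigh replicates, mouse 26 was highest, and Ly6Clow mouse 23 lay inside the brain range. The log2 fold change of *Pgk1* was 1.71 ± 0.471 (adjusted p = 0.0141), 1.49 ± 0.447 (adjusted p = 0.0205) and 1.43 ± 0.446 (adjusted p = 0.0231), and each call was lost without any 1 of the Ly6Chigh replicates (adjusted p 0.0501 to 0.0958) or without the brain replicate of mouse 26 (0.0616 to 0.122), and that in CCR2low macrophages also without mouse 23 (0.0626). Of all 75-base windows of the transcribed *Pgk1* sequence, 52.8% also occur in other annotated genes, the highest share among the members, and 22.6% do for *Gapdh*. Reads of both may therefore be lost in counting, but their alignment was not examined.

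The transporter pair that moves lactate across the membrane differed in its values. *Slc16a1* (chr3:104638668-104658462), which encodes MCT1, measured 1.69, 0 and 4.81 CPM in Ly6Chigh monocytes and 0, 0 and 10.7 CPM in Ly6Clow monocytes. In GFPneg cells it was 20.6, 19.8 and 77.4 CPM in glioma monocytes, 20.8, 22.9, 13.7 and 44.1 CPM in CCR2high macrophages and 20.4, 36.3, 42.6 and 65.9 CPM in CCR2low macrophages. The GFPneg brain replicates lay above all blood replicates, whereas 3 GFPpos replicates (glioma monocytes at 9.38 CPM in mouse 22 and 4.09 CPM in mouse 24, and CCR2high macrophages at 8.05 CPM in mouse 22) overlapped with blood. The log2 fold change was 3.96 ± 1.22 (adjusted p = 0.0291), 3.35 ± 1.16 (adjusted p = 0.0458) and 4.04 ± 1.19 (adjusted p = 0.0165), and all 3 calls were lost without Ly6Chigh mouse 22 or 23 (0.0766 to 0.179), the first also without mouse 26, where it became 2.95 (adjusted p = 0.158). Without Ly6Chigh mouse 24 the *Slc16a1* values became 5.44, 4.83 and 5.52. The CCR2high call was lost without any 1 of its 7 replicates. *Slc16a3*, which encodes MCT4, the transporter of lactate-exporting cells, was at 157 ± 40 CPM in Ly6Chigh monocytes and 506 ± 223 CPM in GFPneg glioma monocytes, which did not pass the test (log2 fold change 1.69 ± 0.605, adjusted p = 0.065). It was called with the mouse number as a block (log2 fold change 1.36, adjusted p = 0.0252), in a fit of only the 2 populations (adjusted p = 0.00376) and by DESeq2 (adjusted p = 0.0322).

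*Ldha*, the lactate dehydrogenase subunit that favors lactate, rose from 799 ± 249 CPM in Ly6Chigh monocytes to 2301 ± 610, 1958 ± 263 and 2126 ± 434 CPM in GFPneg glioma monocytes, CCR2high and CCR2low macrophages. Its 3 log2 fold changes were 1.53 ± 0.258, 1.29 ± 0.244 and 1.41 ± 0.246. *Pkm*, the muscle-type pyruvate kinase gene, rose in glioma monocytes (1564 ± 192 to 3012 ± 908 CPM, adjusted p = 0.0221). That call was lost without any 1 of the Ly6Chigh replicates or glioma monocytes of mouse 26 (0.0539 to 0.187). *Pgam1*, *Eno1* and *Pdk1*, which encode phosphoglycerate mutase, enolase and the kinase that restrains entry of pyruvate into the mitochondrion, had no call in these comparisons without the block. In glioma monocytes *Eno1* had a log2 fold change of 0.472 (adjusted p = 0.153), which was called with the block (0.458, adjusted p = 0.0289), and *Pgam1* one of 1.11 (adjusted p = 0.187), which was called in a fit of only the 2 populations (adjusted p = 0.0223). *Eno1* was abundant, with 1518 ± 326 CPM in Ly6Chigh monocytes and 1546 ± 150 and 1461 ± 316 CPM in the GFPneg macrophages (log2 fold change 0.0269 ± 0.196 and -0.0551 ± 0.196).

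*Hif1a* and *P4ha1* were the members called higher among the 6 genes of HIF1α and oxygen-dependent enzymes. *Hif1a* (chr12:73901375-73947530) measured 261, 228 and 180 CPM in Ly6Chigh monocytes and 80.2, 115 and 72.5 CPM in Ly6Clow monocytes. It was 922, 746 and 967 CPM in GFPneg glioma monocytes against 188, 153 and 456 CPM in GFPpos glioma monocytes. GFPneg CCR2high macrophages had 387, 530, 489 and 255 CPM, and GFPneg CCR2low macrophages 418, 331, 310 and 278 CPM. The GFPneg glioma monocytes lay above every other replicate of the study, the GFPpos ones overlapped with Ly6Chigh monocytes, and mouse 26 was the lowest of both GFPneg macrophage populations. Against Ly6Chigh monocytes the log2 fold change was 1.98 ± 0.432 in GFPneg glioma monocytes (3.94-fold, adjusted p = 0.00215), 0.898 ± 0.399 in CCR2high macrophages (adjusted p = 0.128) and 0.585 ± 0.396 in CCR2low macrophages (adjusted p = 0.343).

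*P4ha1* (chr10:59323296-59373304) encodes the catalytic subunit of a collagen prolyl hydroxylase. It measured 107, 70.3 and 76.7 CPM in Ly6Chigh monocytes, 117, 288 and 140 CPM in Ly6Clow monocytes and 222, 193 and 296 CPM in GFPneg glioma monocytes. GFPneg CCR2high macrophages had 143, 217, 162 and 233 CPM, and GFPneg CCR2low macrophages 156, 263, 222 and 217 CPM. Brain replicates were above all Ly6Chigh replicates but overlapped with Ly6Clow ones. The log2 fold change against Ly6Chigh monocytes was 1.48 ± 0.323 (adjusted p = 0.00206), 1.16 ± 0.305 (adjusted p = 0.00827) and 1.34 ± 0.307 (adjusted p = 0.0023), with the CCR2high call lost without Ly6Chigh mouse 23 or 24 (0.0681 and 0.0508). *Egln1* and *Egln3*, the HIF prolyl hydroxylases, *P4ha2*, a second collagen prolyl hydroxylase, and *Kdm3a*, a histone demethylase, did not pass the test. *Egln3* was at 2.65 ± 2.25 CPM in Ly6Chigh monocytes and 49.9 ± 39.1 CPM in GFPneg glioma monocytes (adjusted p = 0.0541). *Egln3* was called with the mouse number as a block (adjusted p = 0.0248), in a fit of only the 2 populations (adjusted p = 0.00226) and by DESeq2 (adjusted p = 0.00658), and its SD exceeded its mean in 3 of the 6 brain populations.

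Of the 8 other hypoxia-responsive genes, 4 rose in GFPneg glioma monocytes (*Vegfa*, *Bnip3*, *Ankrd37* and *Mif*) and 2 (*Vegfa* and *Mif*) in each GFPneg macrophage population. *Vegfa* (chr17:46016993-46032369), the main angiogenic growth factor, was at 0 in all 6 blood replicates. It measured 50.7, 57.3 and 88.4 CPM in GFPneg glioma monocytes, 15.1, 26.9, 75.4 and 43.9 CPM in GFPneg CCR2high macrophages and 16.5, 18.2, 30.1 and 35.9 CPM in GFPneg CCR2low macrophages. Each brain replicate was above each blood replicate, and mouse 24, low for many other members, was the highest of the CCR2high macrophages. Taken against the mean limit of 3 counts per library in Ly6Chigh monocytes (1.36 CPM), *Vegfa* was at least 48.2-fold higher in GFPneg glioma monocytes, 29.7-fold in CCR2high and 18.5-fold in CCR2low macrophages (adjusted p = 1.36e-06, 2.49e-06 and 5.81e-06). *Mif* (chr10:75859353-75860240), a cytokine that retains macrophages in tissue, measured 41.6, 29.3 and 28.6 CPM in Ly6Chigh monocytes, 104, 115 and 58.9 CPM in Ly6Clow monocytes and 381, 412 and 434 CPM in GFPneg glioma monocytes. In GFPneg macrophages it was 320, 367, 228 and 419 CPM with high CCR2 and 257, 439, 234 and 412 CPM with low CCR2. No blood replicate overlapped with the brain, and its log2 fold changes of 3.63 ± 0.349 (12.4-fold, adjusted p = 4.17e-08), 3.33 ± 0.336 (10.1-fold) and 3.34 ± 0.336 (10.1-fold) had the lowest adjusted p of the members. Calls of *Vegfa* and *Mif* against Ly6Chigh monocytes held under each alternative in which they were tested, spike-in scaling included, but *Vegfa* was not tested under the filter of 10 counts in every replicate. In *Mif*, 28.2% of 75-base windows are shared with other annotated genes.

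*Ankrd37* (chr8:45996902-46005707), which encodes an ankyrin repeat protein induced by HIF1α, measured 2.81, 2.34 and 1.88 CPM in Ly6Chigh monocytes, 10.9, 2.31 and 1.18 CPM in Ly6Clow monocytes and 13.5, 27.8 and 16.8 CPM in GFPneg glioma monocytes. The GFPneg macrophages had 7.57, 9.02, 4.41 and 16 CPM with high CCR2 and 6.61, 11.1, 2.78 and 8.97 CPM with low CCR2. Glioma monocytes lay above all blood replicates, while 6 of the 8 GFPneg macrophage replicates lay within the blood range. Against Ly6Chigh monocytes *Ankrd37* had a log2 fold change of 3.05 ± 0.802 in glioma monocytes (adjusted p = 0.0104, lost without Ly6Chigh mouse 23 or 24 at 0.05 and 0.0638), 2 ± 0.752 in CCR2high macrophages (adjusted p = 0.0667) and 1.66 ± 0.749 in CCR2low macrophages (adjusted p = 0.126). *Bnip3*, a mitophagy receptor of the outer mitochondrial membrane, spanned 28.4 to 52.7 CPM in Ly6Chigh monocytes and 143 to 419 CPM in GFPneg glioma monocytes (adjusted p = 0.0285). The *Bnip3* call was lost without any 1 of the Ly6Chigh replicates (0.0781 to 0.128) or without mouse 22 or 26 of the glioma monocytes (0.0518 and 0.134). *Adm*, which encodes the vasodilator adrenomedullin, was at 0 in all blood replicates and at 9.03, 0 and 28.4 CPM in GFPneg glioma monocytes, at least 9.19-fold higher on average without passing the test (adjusted p = 0.0593, but 0.00828 with the block and 0.00544 by DESeq2). *Ero1l*, an oxidase of protein folding, *Ndrg1*, a stress-induced gene, and *Ddit4*, an inhibitor of mTORC1, had no call, and *Ndrg1* was at 115 ± 66.6 CPM in Ly6Chigh monocytes and 123 ± 120 CPM in GFPneg glioma monocytes.

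Over all 28 replicates, 6 members (*Aldoa*, *Tpi1*, *Gapdh*, *Vegfa*, *Bnip3* and *Mif*) had every brain replicate above every blood replicate, where 4.75% of all genes tested did, and 0 had every brain replicate below every blood replicate (1.58% of all genes). Without Ly6Clow mouse 23 there were 10, with *Slc2a1*, *Aldoc*, *Pgk1* and *Ldha* added, and 1 below, *Pfkfb4*. Leaving out a replicate can only raise such counts for any gene. The share of all genes without this replicate was not determined, so the rise is not a result about the members. Both counts of members above blood include *Vegfa*, which reached the filter's minimum only with the brain samples. The summed CPM of the 34 members was 6594 to 9043 in blood, 16500 to 24900 in GFPneg glioma monocytes and 9906 to 18340 in GFPneg CCR2low macrophages.

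The blood populations were also compared with each other. Ly6Chigh monocytes had 0 members higher and 3 lower than Ly6Clow monocytes (1.96% and 3.65% of all genes), with a median log2 fold change of -0.0895 over the members and 0.0234 over all genes. The lower members were *Aldoc* (log2 fold change -3.29 ± 0.589, adjusted p = 0.00124), *Mif* (-1.48 ± 0.325, adjusted p = 0.00684) and *P4ha1* (-1.1 ± 0.32, adjusted p = 0.0419). *Hif1a* was higher in Ly6Chigh monocytes without passing the test (log2 fold change 1.32 ± 0.427, adjusted p = 0.0668). Markers of T and NK cells summed to 965 to 1340 CPM in Ly6Clow and 20.5 to 183 CPM in Ly6Chigh monocytes. Those of B cells summed to 244 to 443 CPM in Ly6Clow and 58.7 to 110 CPM in Ly6Chigh monocytes. The part of both lists in the differences between the blood populations was not tested. At an unadjusted p under 0.05 there were 6 members (17.6%, against 21.8% of all genes), with 1 higher, *Hif1a*, and 5 lower, *Aldoc*, *Gapdh*, *Ldha*, *P4ha1* and *Mif*. DESeq2 called 1 higher and 3 lower. With the mouse number as a block, which pairs both populations within an animal, 5 members were lower, *Gapdh* and *Ldha* being added. A fit of only the 2 blood populations called 0 lower. First libraries only, which put back the mouse 23 library that failed the quality rule, gave 1. Spike-in scaling gave 0, with *Mif* at 0.622 and *P4ha1* at 1.04 on the log2 scale where the median of all genes was at 1.69. Without Ly6Clow mouse 23 the log2 fold change of *Aldoc* was -1.84 (adjusted p = 0.0173). The *P4ha1* call was lost without any 1 of the Ly6Chigh replicates (0.0572 to 0.215) or without Ly6Clow mouse 23 (0.34), and the *Mif* call without Ly6Chigh mouse 23 or 24 (0.0614 and 0.0534). Without Ly6Clow mouse 24 there were 3 members higher, and the number lower was 1 without Ly6Chigh mouse 23 or 24. Shares of all genes called under these other settings are not given, so their counts are description only.

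Against Ly6Clow monocytes, GFPneg glioma monocytes had 18 members higher and 0 lower (13% and 5.51% of all genes), with a median log2 fold change of 1.61 against 0.241 over all genes. Of the 28 members that reached the filter's minimum in blood, 14 were higher. A fit of only these 2 populations gave 4 members higher, and a fit of only the mice that gave both populations, chosen after seeing the data, gave 11. This comparison shares its glioma monocytes with the first one. *Hif1a* was 9.83-fold higher (log2 fold change 3.3 ± 0.457, adjusted p = 9.09e-06), *Bnip3* 21.7-fold (adjusted p = 0.00102) and *Pfkl* 6.68-fold (adjusted p = 8.79e-05). Without Ly6Clow mouse 23 there were 14 members higher, and the log2 fold change of *Hif1a* went from 3.3 to 3.51, of *Bnip3* from 4.44 to 3.84 and of *Pfkl* from 2.74 to 2.33. *Pgam1*, *Egln3*, *Adm* and *Ero1l* passed the test here (adjusted p 0.0162, 0.0366, 0.0447 and 0.0168) and not against Ly6Chigh monocytes, and each of these 4 calls was lost without Ly6Clow mouse 23 (0.0515 to 0.129) or without the glioma monocytes of mouse 26 (0.0775 to 0.143). In contrast, *Slc2a1*, *Aldoc*, *Pgk1*, *P4ha1* and *Ankrd37* did not pass it here (0.0607 to 0.608), of which *Slc2a1*, *Aldoc* and *Pgk1* were called without Ly6Clow mouse 23. Without the glioma monocytes of mouse 26 the number of higher members was 10. For the smaller fits and those without a replicate, shares of all genes are not given, so their counts are description only.

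Within the brain none of the 34 members passed the edgeR test between GFPneg populations. Glioma monocytes against CCR2high macrophages gave 0 calls (0.182% of all genes were called either way), with 4 members (11.8%, against 5.38% of all genes) at an unadjusted p under 0.05 (*Hk2*, *Eno1*, *Slc16a3* and *Hif1a*, all higher in monocytes) and 0 by DESeq2. Against CCR2low macrophages they gave 0 calls (1.21% of all genes), with 7 (20.6%, against 8.46% of all genes) at an unadjusted p under 0.05 (*Pfkp*, *Tpi1*, *Eno1*, *Pkm*, *Slc16a3*, *Hif1a* and *Vegfa*, all higher in monocytes) and 1 by DESeq2, *Hif1a*. With the mouse number as a block, which pairs populations of the same animal, 4 members were called higher in this last comparison, *Pfkp*, *Eno1*, *Pkm* and *Slc16a3*. The share of all genes called with the block is not given, so this count is description only. The largest of these unblocked differences with an unadjusted p under 0.05 were *Hif1a* (log2 fold change 1.39 ± 0.388, adjusted p = 0.0813) and *Vegfa* (1.38 ± 0.574, adjusted p = 0.44). The median member was 0.495 and 0.541 higher on the log2 scale in glioma monocytes than in CCR2high and CCR2low macrophages. CCR2high against CCR2low macrophages gave 0 calls (0.0% of all genes), 0 members at an unadjusted p under 0.05 and 0 by DESeq2, with log2 fold changes from -0.916 to 0.684 and a median of 0.0639.

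Uptake of glioma membrane was compared through GFPpos against GFPneg cells. None of the members was called in glioma monocytes, CCR2high macrophages or CCR2low macrophages (0.0% of all genes in each), and DESeq2 also called 0 members in each. By edgeR, 2 members in glioma monocytes (5.88%, against 6.39% of all genes) had an unadjusted p under 0.05, *Aldoc* (log2 fold change 1.15 ± 0.511, adjusted p = 0.739) and *Hif1a* (-1.72 ± 0.429, adjusted p = 0.486), and in both macrophage populations 0 had. The 5 astrocyte markers summed to 49.7 to 59.7 CPM in GFPpos and 33.1 to 48.4 CPM in GFPneg glioma monocytes, and their part in the *Aldoc* values was not tested. The GFPpos glioma monocytes of mice 22 and 24 had 3.59% and 5.16% spike-in counts, against 0.319% to 0.742% in the GFPneg ones, and the part of this in the *Hif1a* values was not tested. Members ranged from -1.72 to 2.42 in glioma monocytes, from -0.465 to 0.926 in CCR2high and from -0.352 to 1.01 in CCR2low macrophages on the log2 scale, with medians of -0.168, 0.129 and 0.207. Whether the GFP difference in glioma monocytes departs from that in CCR2high or CCR2low macrophages was tested as an interaction, with 0 members called in either case (0.0% of all genes in each). By edgeR *Hif1a* had the lowest unadjusted p in both interactions (log2 difference -1.6 ± 0.555 and -1.83 ± 0.556, adjusted p = 1 in both). These results do not show that GFPpos and GFPneg cells have equal levels.

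The GFPpos and GFPneg replicates of the same kind overlapped for all members in both macrophage populations, and for all but *Hif1a*, *Pfkp* and *Aldoc* in glioma monocytes. With so few replicates on each side, values can separate by chance. The share of all genes without such overlap was not determined, so these separations are description only. *Hif1a*, given above, and *Pfkp* (284, 328 and 238 CPM in GFPpos against 346, 476 and 465 CPM in GFPneg glioma monocytes) were lower in each GFPpos replicate. *Slc2a1* was at 577, 306 and 1090 CPM in GFPpos glioma monocytes, 176, 308, 168 and 845 CPM in GFPpos CCR2high and 208, 473, 259 and 811 CPM in GFPpos CCR2low macrophages, which overlapped with the GFPneg values in each. *Aldoc* was at 107, 75.6 and 150 CPM in GFPpos glioma monocytes, all above the GFPneg ones, and at 63.8, 113, 59 and 121 CPM and 70.3, 113, 71 and 105 CPM in the GFPpos macrophages, which overlapped with theirs. *Mif* reached 714, 351 and 547 CPM in GFPpos glioma monocytes, on both sides of the GFPneg range, and 308, 476, 265 and 452 CPM and 407, 507, 318 and 436 CPM in the macrophages. *Vegfa* was at 22, 36.8 and 67.9 CPM in GFPpos glioma monocytes, at 25.4, 27.4, 60.3 and 26.5 CPM in CCR2high and at 14.5, 14, 11.5 and 47.1 CPM in CCR2low macrophages. Its GFPpos values overlapped with the GFPneg ones in all 3 kinds of cell. Across the GFPpos populations *Tpi1* ranged from 587 to 1440 CPM, *Gapdh* from 1620 to 3280 CPM, *Pgk1* from 132 to 350 CPM, *P4ha1* from 128 to 313 CPM, *Ankrd37* from 3.1 to 32.4 CPM and *Pfkfb4* from 18.7 to 72.9 CPM.

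The members also varied between animals, whose sex is not given in the labels used here. Mouse 26 had the highest value in all 4 macrophage populations for 10 of 34 members (29.4%, against 8.16% of all genes tested), namely *Slc2a1*, *Hk2*, *Pgk1*, *Pgam1*, *Eno1*, *Ldha*, *Egln3*, *P4ha2*, *Adm* and *Ndrg1*. Mouse 23 did so for 1 member, *Ddit4* (2.94%, against 0.865% of all genes), and mouse 22 and mouse 24 for 0 (1.34% and 3.46% of all genes). The summed CPM of the 34 members in the 4 macrophage populations was 12250 to 13630 in mouse 22, 14890 to 17880 in mouse 23, 9906 to 12240 in mouse 24 and 17310 to 19420 in mouse 26. *Slc2a1* ranged from 176 to 208, 265 to 473, 99.9 to 259 and 568 to 845 CPM in the same order of mice. Macrophages of mouse 26 therefore did not overlap with those of the other animals in *Slc2a1*, and those of mouse 23 were above those of mice 22 and 24.

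**Figure D4:**
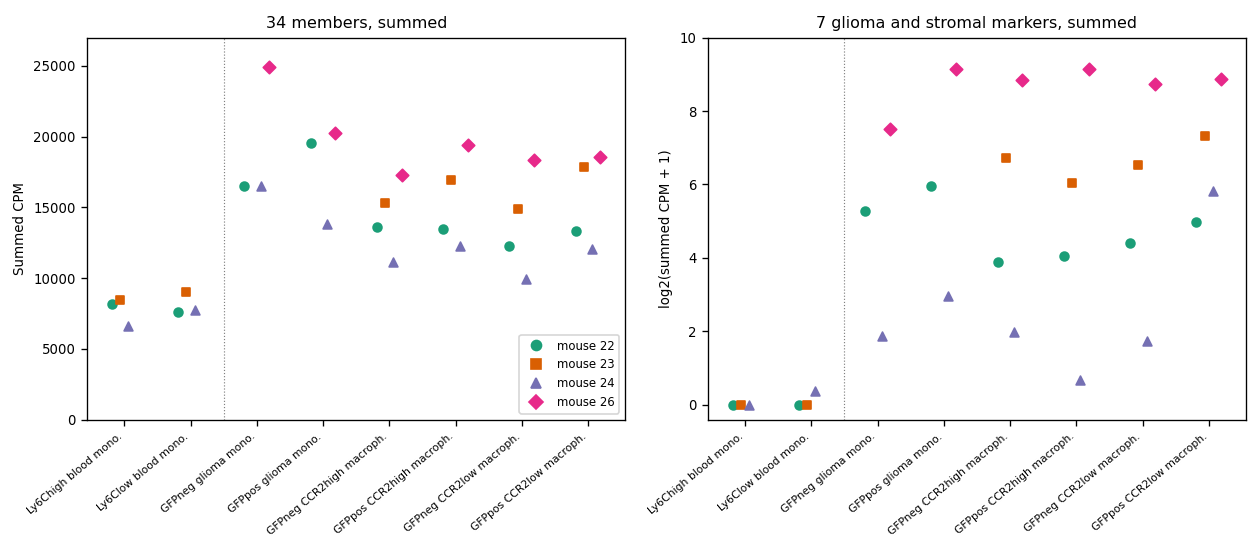
Summed normalized read count of the 34 members (left, CPM, linear axis) and of 7 markers of glioma and stromal cells (right, log2(summed CPM + 1)) in each replicate, by population and colored by mouse. On the left, in the 4 macrophage populations mouse 26 is highest and mouse 24 lowest, and all brain points lie above the blood points at 6594 to 9043. On the right mouse 26 is highest in every brain population.

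The 7 markers of glioma and stromal cells (*Nes*, *Sox2*, *Ptprz1*, *Cspg4*, *Col1a1*, *Col1a2* and *Col3a1*) put the animals in the same order by their medians. Their summed level in brain replicates had a median of 461 CPM in mouse 26 (183 to 565), 97.8 CPM in mouse 23 (64.6 to 159), 25.4 CPM in mouse 22 (13.9 to 61.6) and 2.81 CPM in mouse 24 (0.603 to 55.8), and in blood 7 of the 7 were at 0 in Ly6Chigh monocytes and 6 of the 7 in Ly6Clow monocytes. The part of these cells in the order of the mice was not tested. In the GFPneg brain replicates of mouse 24 the 7 markers summed to 2.31 to 2.94 CPM, and 16 of the 34 members (47.1%) lay above every Ly6Chigh replicate in all 3 of them, as did 21.2% of all genes tested. The 12 members called higher in all 3 comparisons were among the 16, apart from *Pfkl*, but those calls used these same replicates. The 16 include *Slc16a1* and *Vegfa*, which reached the filter's minimum only with the brain samples. Mouse 24 was also highest in microglial markers (3370, 5490 and 10900 CPM in GFPneg glioma monocytes, CCR2high and CCR2low macrophages). The same held for neutrophil markers (1800, 387 and 2180 CPM) and dissociation-induced genes (15400, 9520 and 7390 CPM). The part of these lists in the values of mouse 24 was not tested. The 10 dissociation-induced genes summed to 1400 to 1700 CPM in Ly6Chigh monocytes, 9060 to 15400 CPM in GFPneg glioma monocytes, 5360 to 9520 CPM in GFPneg CCR2high and 3970 to 7390 CPM in GFPneg CCR2low macrophages, and their part in the member values was not tested.

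Several steps are served by more than 1 isozyme or transporter, and levels were compared between genes per kilobase of exon sequence. Of the glucose transporters, *Slc2a6* was at 62.6 ± 9.93 and *Slc2a1* at 15.4 ± 1.98 CPM per kb in Ly6Chigh monocytes (SD, n = 3), so that *Slc2a1* made up 19.8% ± 4.44 of the summed level of *Slc2a1*, *Slc2a3* and *Slc2a6*. In GFPneg glioma monocytes *Slc2a1* was at 184 ± 150 and *Slc2a6* at 44.1 ± 26.9 CPM per kb, and the *Slc2a1* share was 73.2% ± 18.4, with 74.3% ± 12.7 and 74.1% ± 14.7 in GFPneg CCR2high and CCR2low macrophages (n = 4 each). *Pfkfb4* held 92.9% ± 2.83 of the level of *Pfkfb3* and *Pfkfb4* in Ly6Chigh monocytes and 51.1% ± 12.7, 56.8% ± 12.1 and 48.7% ± 8.41 in the 3 GFPneg brain populations. These shares were not tested, and their values did not come within an SD of each other between Ly6Chigh monocytes and brain.

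Other families kept the same leading gene. *Hk3*, the myeloid hexokinase, led *Hk1* and *Hk2* with 56.7% ± 4.47 of their summed level per kb in Ly6Chigh monocytes and 63.6% to 69.2% in the GFPneg brain populations. *Ldha* held 84.2% ± 3.12 of the lactate dehydrogenase level in Ly6Chigh monocytes and 83% to 91% in GFPneg brain cells. *Aldoa* held 95.6% or more of the aldolase level in these populations, so *Aldoc* rose by the largest fold among the glycolytic enzymes while staying at 4.36% or less of it. *Slc16a3* held 79.5% to 98.3% of the level of both lactate transporters. *Hif1a* held 99.1% or more of the level of *Hif1a* and *Epas1*, which encodes HIF2α.

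**Figure D5:**
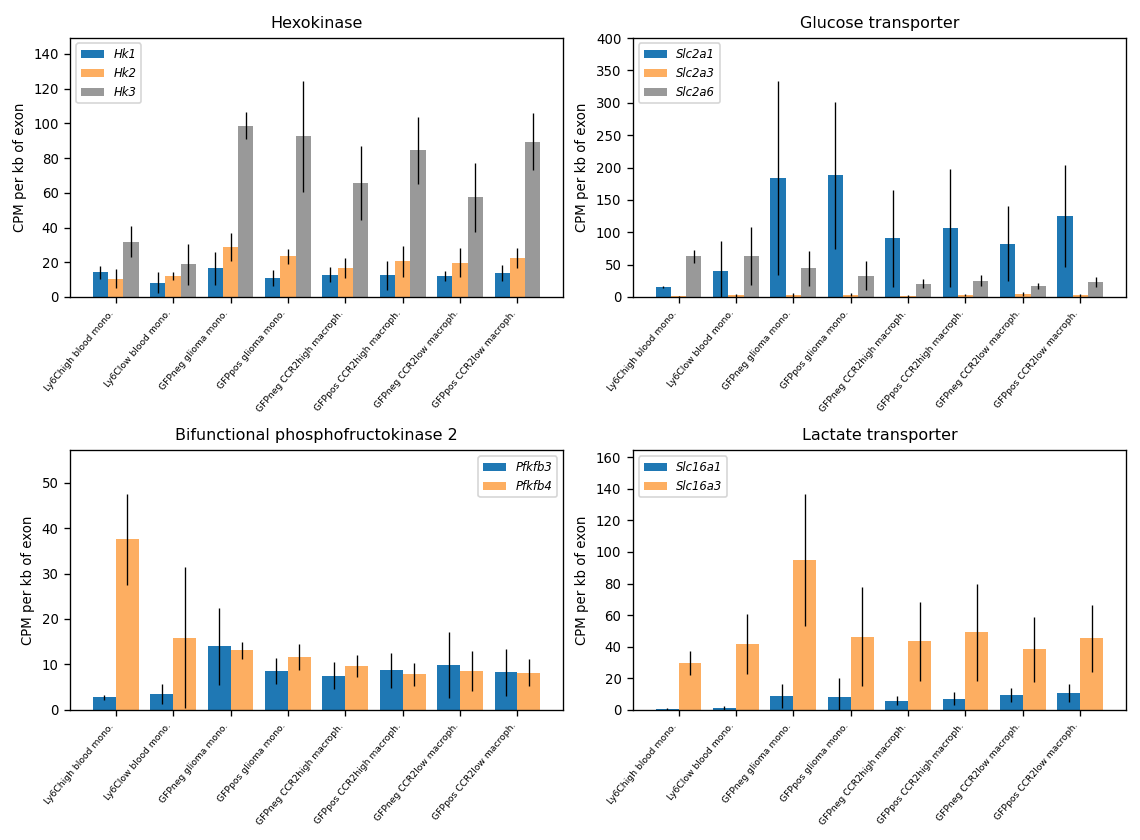
Mean level per kilobase of exon (CPM per kb, linear axes from 0) of hexokinases, glucose transporters, *Pfkfb3* with *Pfkfb4*, and lactate transporters, by population, with bars of 1 SD over mice (lower bars end at 0 where the SD exceeds the mean). *Slc2a6* leads *Slc2a1* in Ly6Chigh monocytes and the order is the other way round in the brain populations, while *Hk3* and *Slc16a3* lead their families in both.

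The other genes of both pathways were taken from 2 lists. Of 28 further genes of glucose metabolism, 20 were tested, and 0 were higher and 2 lower (10%) in all 3 comparisons of GFPneg brain cells with Ly6Chigh monocytes. These were *Eno3*, the muscle enolase (log2 fold change -2.36, -2.14 and -2.25), and *Pygl*, the liver-type glycogen phosphorylase (-1.15, -1.26 and -1.29). Over all genes tested, 8.8% were higher and 2.2% lower in all 3. In single comparisons 1, 0 and 1 of the 20 were higher and 2, 3 and 3 lower. The shares of all genes were 11.1%, 12.7% and 14.1% higher and 2.68%, 5.14% and 6.09% lower. Of 30 further genes of the hypoxia response, 25 were tested, with 9, 8 and 9 higher and 0, 0 and 1 lower. The 8 genes higher in all 3 (32% of the 25, against 8.8% of all genes) included *Hilpda*, *Fam162a*, *Bhlhe40*, *Arg1*, *Nos2*, *Tgm2* and *Pim1*. *Hilpda*, an inhibitor of lipolysis on lipid droplets, went from 7.5 CPM in Ly6Chigh monocytes to 216, 122 and 109 CPM in GFPneg glioma monocytes, CCR2high and CCR2low macrophages (log2 fold change 4.84, 4.03 and 3.85). *Bhlhe40*, a transcriptional repressor, went from 64 to 994, 678 and 522 CPM. *Arg1* and *Nos2*, the arginine-consuming enzymes of macrophages, were at 0 in Ly6Chigh monocytes and at 1140 and 135 CPM in GFPneg glioma monocytes. *Bnip3l*, the close relative of *Bnip3*, was at 222 CPM in Ly6Chigh monocytes and 136, 146 and 130 CPM in the brain populations, and *Egln2*, the third HIF prolyl hydroxylase, was called in none of the 3 (log2 fold change -0.504, -0.79 and -0.712).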

How the data were processed

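RNA-seq was available for 8 sorted populations. The deposited values are whole-number counts of reads per gene, not normalized, in 30 libraries. To make them, the authors reverse transcribed the RNA with a low-input kit after adding 92 spike-in RNAs, sequenced 75-base read pairs, used STAR for alignment to mm10 and Picard 1.8.4 to drop duplicates, and let htseq-count (strict intersection) assign reads to GENCODE genes. Removing duplicates without molecular identifiers can lower the counts of abundant short transcripts. The strand setting is not given in the sources used here, and 10 members overlap an exon on the opposite strand. Tool names are also in the submitters' processing notes.

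Library sizes exclude reads on no gene (6.28% to 17.4%), and 0 columns were left unused. The authors' rule of at least 6000 genes with 5 or more reads removed 1 library, whose sample had a second, and 2 libraries of another sample were summed, giving 28 replicates. The second libraries came in a separate count file. The Ly6Clow replicate of mouse 23 is wholly from that file, and the GFPpos glioma monocytes of mouse 22 are in part. Otherwise the labels used here separate replicates only by mouse number. The paper used male and female mice, and these labels do not give the sex behind each number. All 36 pairs within a population differed by more than sampling noise. Counts were tested with edgeR 4.0.16 in R 4.3.3 (TMM, filterByExpr, robust quasi-likelihood test in 1 fit over 8 populations, 20 residual degrees of freedom) at an adjusted p under 0.05. The scripts were tested on simulated data. CPM uses TMM-scaled library sizes, and limits at 0 counts (3 counts, 95% confidence) cover counting error only. Promoters and positions are from RefSeq and GENCODE on GRCm38. *Ero1l* was matched to RefSeq as Ero1a.

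The numbers mark the animal, so samples of 1 number are paired. Over 86 pairs of samples of the same mouse, deviations from the group means correlated at -0.0971 to 0.674 (median 0.136). The fit with the mouse as block was an alternative, as were DESeq2 1.42.0, its size factors, spike-in scaling, other filters, a fit of only the compared populations, first libraries only and leaving out each replicate. The members, gene lists and tests were chosen with earlier results of these data known. Values in every replicate were given for the 3 called members of each role with the largest absolute log2 fold change against Ly6Chigh monocytes, for *Hif1a* and for members called against most of their role. The other glycolysis and hypoxia genes are named where called in all 3 comparisons, apart from 1 gene that is not reported here. *Hk3*, *Slc2a6*, *Epas1*, *Egln2* and *Bnip3l* were named beside them as relatives of members.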

Additional observations from a re-analysis of the deposited data

Results flagged for a closer look

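In the macrophage populations, which have 4 replicates each, 136 sets of 4 values (34 members in 4 populations) were examined for a single replicate far from the other 3 by Dixon's test, which by chance flags about 1 in 20 sets. It flagged 9. *Pdk1* in GFPneg CCR2high macrophages of mouse 23 was at 64.8 CPM against 21.4 to 26.9 CPM in the others, and *Vegfa* in GFPpos CCR2high macrophages of mouse 24 was at 60.3 CPM against 25.4 to 27.4 CPM. The remaining replicates were all from mouse 26. *Adm* was at 14.4 CPM against 0 to 2.01 CPM in GFPneg CCR2high macrophages. *Hk1* was at 209 CPM against 56.6 to 82.7 CPM and *Pfkl* at 527 CPM against 295 to 329 CPM in GFPpos CCR2high macrophages. *Pfkfb3* was at 156 CPM against 38 to 55.5 CPM and *Ndrg1* at 119 CPM against 10.9 to 20.8 CPM in GFPneg CCR2low macrophages. *Vegfa* was at 47.1 CPM against 11.5 to 14.5 CPM and *Ero1l* at 222 CPM against 45.4 to 51.2 CPM in GFPpos CCR2low macrophages. All 9 stood above the other 3 replicates.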

How the results depend on the processing

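Counts of members refer to the 34 and to comparisons with Ly6Chigh monocytes unless another is named. Spike-in scaling gave 2, 3 and 3 members higher in GFPneg glioma monocytes, CCR2high and CCR2low macrophages, 0 lower in CCR2low macrophages, 0 lower in Ly6Chigh than in Ly6Clow monocytes and 1 member with every brain replicate above blood. Under it the medians over all genes were -0.0387, 0.148 and 0.0105 on the log2 scale, and 1.73, 1.27 and 1.24 over the members. *Mif* and *P4ha1* in Ly6Chigh against Ly6Clow monocytes turned to 0.622 (adjusted p = 0.587) and 1.04 (adjusted p = 0.382), where the median of all genes was at 1.69, so both were lower relative to that shift. First libraries only gave 10, 7 and 8 members higher and 1 lower in Ly6Chigh than in Ly6Clow monocytes. This setting put back the Ly6Clow library of mouse 23 that failed the quality rule, with 3460 genes. Only the mice that gave both populations, chosen after seeing the data, gave 10 higher in glioma monocytes and 11 against Ly6Clow monocytes. Fits of only the compared populations gave 1 lower in glioma monocytes, 2 lower in CCR2high macrophages, 0 lower in Ly6Chigh than in Ly6Clow monocytes, 4 higher in glioma than in Ly6Clow monocytes and 1 higher in glioma monocytes than in CCR2low macrophages. The replicate block, which pairs samples of a mouse, gave 1 lower in CCR2high macrophages, 5 lower in Ly6Chigh than in Ly6Clow monocytes and 4 higher in glioma monocytes than in CCR2low macrophages, and changed no other count by over 1.5 times. DESeq2 gave 1 lower in CCR2high macrophages, 1 higher in Ly6Chigh than in Ly6Clow monocytes and 1 higher in glioma monocytes than in CCR2low macrophages. A filter of 1 count in all replicates gave 0 lower in CCR2low macrophages, as did a filter of 10 counts in every replicate, which kept 19 members and gave 1 higher in Ly6Chigh than in Ly6Clow monocytes. Apart from these filters and the smaller fits, which change the genes or samples used, the cause was not tested. Leaving out 1 replicate gave 12 to 20 members higher in glioma monocytes, 7 to 12 in CCR2high and 8 to 14 in CCR2low macrophages (0 to 1 lower), 0 to 3 higher and 1 to 4 lower in Ly6Chigh than in Ly6Clow monocytes, 10 to 18 higher in glioma than in Ly6Clow monocytes, and 6 to 10 members with every brain replicate above and 0 to 1 below blood. The share of all genes without overlap between blood and brain was determined only for the full set of replicates under TMM. Apart from the spike-in calls given above, shares of all genes called under these settings are not given. Their counts of members are therefore description only. The motif GCGTG or ACGTG occurred in 93.9% of members and ACGTG in 72.7%. At 3 counts, levels under 0.527 to 1.93 CPM, depending on the library and before TMM scaling, were not distinguishable from 0.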
